A study of Homo sapiens with 12 samples.

Results

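A set of 7 small RNA genes made by RNA polymerase III were followed across all libraries of the series: RN7SK, RN7SL1, RN7SL2, RMRP, RPPH1, RNU6ATAC and VTRNA1-1. They were chosen by symbol, as 7 of the 60583 genes counted, to set beside the spliceosomal small nuclear RNA (snRNA) genes that RNA polymerase II makes. Nascent RNA had been measured by TT-seq, which labels newly made RNA with a thiolated uridine, breaks it into fragments and captures the labelled pieces. The 12 libraries came from U2OS, a human osteosarcoma cell line, in 4 groups of 3 replicates. U2OS cells were transfected with siCtrl, the control siRNA, or with siINTS11, which targets INTS11, and U2OS-AsiSI cells, whose genotype label adds AsiSI-ER, received the same siRNAs and OHT for 1 hour. All groups were sampled 48 hours after transfection. Every U2OS-AsiSI library had OHT, so the AsiSI-ER genotype and OHT cannot be told apart when the lines are compared. The labels do not say whether the replicates were separate cultures, so p-values measure the spread between these libraries, which may be technical.

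RNA polymerase III transcribes short noncoding genes and stops at a run of T residues in the coding strand. The genes of 7SK, RNase P, RNase MRP and U6atac RNA carry a promoter upstream of the start, built from the same proximal element that polymerase II snRNA genes use, while the vault RNA genes, like tRNA genes, also hold promoter elements inside the transcribed part. Polymerase II snRNA transcripts are cut at their 3′ ends by Integrator, whose endonuclease subunit is INTS11, and polymerase III transcripts are not known to need that cut.

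The products of the 7 genes act in several machines. 7SK RNA, from RN7SK, holds the elongation kinase P-TEFb in an inactive particle. RN7SL1 and RN7SL2 encode the RNA of the signal recognition particle, which takes ribosomes to the endoplasmic reticulum. RMRP and RPPH1 encode the RNAs of RNase MRP and RNase P, related enzymes of ribosomal RNA and tRNA processing. RNU6ATAC makes the U6atac snRNA of the minor spliceosome, and VTRNA1-1 makes a vault RNA.

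The sequence of VTRNA1-1 is shown beside that of its paralog VTRNA1-3, because the counts had to tell such copies apart. VTRNA1-3 had more reads per base from a shorter gene. Capitals mark a match to the B box, the internal promoter element, searched for as GTTCNANNC on both strands. It lay at bases 67 to 75 of VTRNA1-1 and 57 to 65 of VTRNA1-3, and the 2 RNAs were 79.8% identical. The same letters occurred on the RNA strand of 4.97% of the 14899 annotated transcripts of 90 to 340 bases, and on the opposite strand of 2.88%.
VTRNA1-1: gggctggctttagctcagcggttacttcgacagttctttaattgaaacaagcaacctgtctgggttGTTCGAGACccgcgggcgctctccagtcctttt
VTRNA1-3: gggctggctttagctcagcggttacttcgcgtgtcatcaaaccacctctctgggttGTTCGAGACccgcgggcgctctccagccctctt

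The T content of the members other than RN7SL1 and RN7SL2, which sets how many places a thiolated uridine can take, ran from 16.8% in RPPH1 to 30.3% in VTRNA1-1, with a median of 24.8% in the transcripts of that length. The annotated sequence ended in a run of 6 T in RNU6ATAC and of 4 in VTRNA1-1, and in 1 T in RN7SK and RMRP and 0 in RPPH1. Sequences are those of GENCODE release 29 transcripts on hg38.

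The library totals ran from 20704611 to 38065726 counts. INTS11 itself had 277, 314 and 286 reads in U2OS with siCtrl and 260, 216 and 225 with siINTS11, a log2 difference of -0.42 (SE 0.09, edgeR adjusted p = 6.08e-05). In U2OS-AsiSI it had 284, 351 and 269 reads with siCtrl and 258, 212 and 277 with siINTS11, a log2 difference of -0.13 (SE 0.08, edgeR adjusted p = 0.172) that did not pass the threshold of 0.05. Lower INTS11 signal was thus called in U2OS only, and the groups are named here by the labels of their libraries. These counts are of newly made RNA, so the loss of INTS11 mRNA or protein in either line cannot be read from them. Mesenchymal markers were present, with 3975 to 4586 reads for VIM and 3486 to 15782 for RUNX2, although COL1A2 had 2 to 13. These markers moved with siINTS11, where 66.9% of all genes tested were called in U2OS and 68% in U2OS-AsiSI. Of the 4 mesenchymal markers tested, 3 fell in U2OS, and 2 fell and 1 rose in U2OS-AsiSI, with RUNX2 at log2 fold changes of -0.84 and -1.07. Of the 3 markers of other cell types tested, 3 rose in U2OS and 1 in U2OS-AsiSI, with RBFOX3 at 0.59 in both. Their part in the results on the members was not tested. The blood marker PTPRC had 2 to 7 reads and CD3E 0 to 1, while the neural marker RBFOX3 had 8154 to 15213 and the epithelial markers EPCAM and CDH1 108 to 264. A difference in the number of cells and one in RNA per cell cannot be told apart in these bulk libraries.

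RN7SK, RN7SL2 and RPPH1 were listed at 0 in all 12 libraries, although all are known as abundant RNAs. RN7SK lies at chr6:52995621-52995948 on the plus strand, RN7SL2 at chr14:49862550-49862849 on the minus strand and RPPH1 at chr14:20343075-20343407 on the minus strand (hg38). Each lay wholly inside another annotated gene on its own strand. The gene around RN7SK, AL162581.1, was only 3 bases longer and was also at 0 in all 12 libraries. AL627171.4 added 2851 bases to RN7SL2, and AL355075.4 added 305 to RPPH1. All 9070 genes of the tables that lay inside a same-strand gene were at 0 in every library. The same was true of 13084 of 42651 genes (30.7%) with no same-strand overlap. It was true of 852 of 8783 (9.70%) that overlapped a same-strand gene without lying inside one. The 0 counts of these 3 members thus match those of every gene placed this way and set no upper limit on their RNA. The same held for 8 of the 17 polymerase II snRNA genes, RNU2-1, RNU7-1 and RNU12 among them.

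RN7SL1 was placed differently. It lies at chr14:49586580-49586878 on the plus strand, inside RPS29, a ribosomal protein gene on the opposite strand, and it had reads in every library. The remaining members with reads were RMRP at chr9:35657751-35658018 (minus), RNU6ATAC at chr9:134164439-134164564 (minus) and VTRNA1-1 at chr5:140711275-140711373 (plus). The symbol RMRP covered 2 annotation entries, ENSG00000269900 and ENSG00000277027, merged in the tables. The others are ENSG00000276168 (RN7SL1), ENSG00000221676 (RNU6ATAC) and ENSG00000199990 (VTRNA1-1).

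RMRP had the most reads of the members. Its raw counts were 210, 217 and 195 in U2OS with siCtrl and 220, 220 and 217 with siINTS11, then 195, 207 and 197 in U2OS-AsiSI with siCtrl and 212, 210 and 217 with siINTS11. The siINTS11 libraries stood above the siCtrl ones in U2OS-AsiSI, by 3 reads at the nearest, and in U2OS the groups met at 217 reads. RN7SL1 had 71, 78 and 60 reads in U2OS with siCtrl and 73, 65 and 63 with siINTS11, then 64, 74 and 68 in U2OS-AsiSI with siCtrl and 70, 69 and 88 with siINTS11. Its groups overlapped in both lines, and its highest value was replicate 3 of U2OS-AsiSI with siINTS11.

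RNU6ATAC had 43, 36 and 32 reads in U2OS with siCtrl and 46, 39 and 42 with siINTS11, then 37, 36 and 33 in U2OS-AsiSI with siCtrl and 42, 35 and 38 with siINTS11. VTRNA1-1 was the sparsest, with 23, 25 and 14 reads in U2OS with siCtrl and 19, 23 and 19 with siINTS11, then 11, 17 and 20 in U2OS-AsiSI with siCtrl and 20, 20 and 15 with siINTS11. Both genes overlapped between siRNAs in both lines.

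**Figure D1:**
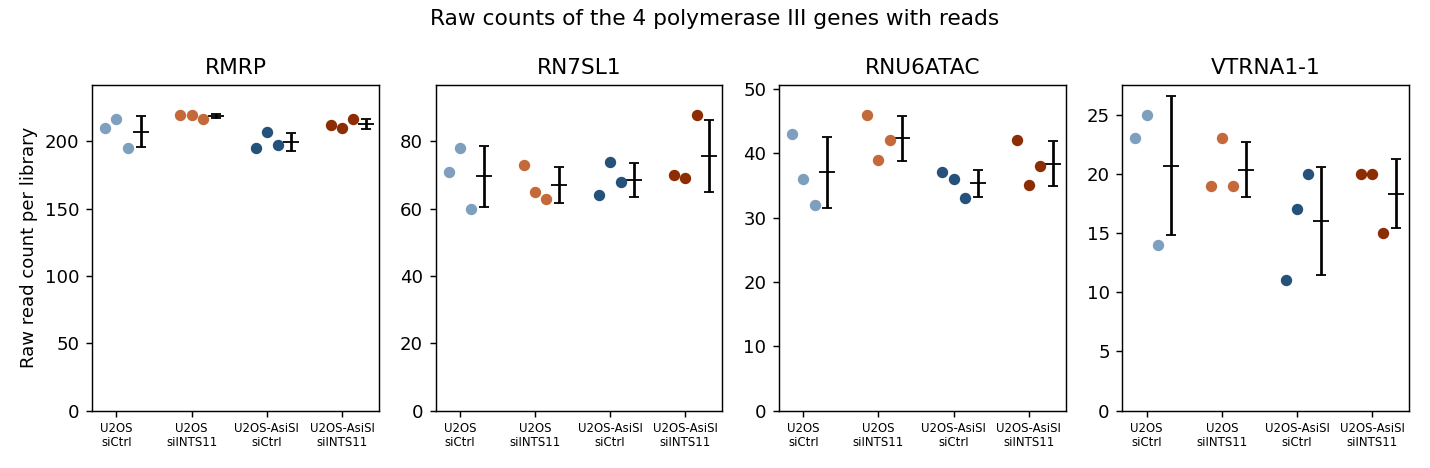
Raw read counts per library (y axis, from 0) of the 4 members with reads, by group (x axis), with points for replicates and a bar for the mean ± SD (n = 3). The groups overlap in all panels except RMRP in U2OS-AsiSI, where the siINTS11 libraries (210 to 217) lie above the siCtrl ones (195 to 207).

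Per base of gene length, the order of the members was RMRP, RNU6ATAC, RN7SL1 and VTRNA1-1. RMRP averaged 0.783 reads per base (range 0.728 to 0.821 over 12 libraries), above every library of the other members. RNU6ATAC averaged 0.304 (0.254 to 0.365), RN7SL1 0.235 (0.201 to 0.294) and VTRNA1-1 0.190 (0.111 to 0.253). RNU6ATAC lay above RN7SL1 in 12 of 12 libraries, although their ranges overlapped, and above VTRNA1-1 with no overlap. RN7SL1 lay above VTRNA1-1 in 11 of 12 libraries with overlapping ranges.

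The counts of the members hardly followed the depth of the libraries, whose totals differed 1.84-fold. The smallest library, replicate 2 of U2OS-AsiSI with siINTS11, had 210 RMRP reads and the largest, replicate 2 of U2OS with siCtrl, had 217. RN7SL1 had 69 and 78 reads in those libraries, RNU6ATAC 35 and 36, and VTRNA1-1 20 and 25. The variance between replicates, divided by the mean count, was 0.219 for RMRP, 0.392 for RNU6ATAC, 0.890 for RN7SL1 and 0.916 for VTRNA1-1, where independent reads would give 1. Scaling a count that does not follow depth raises it in a small library and lowers it in a large one, so each fold change is given scaled and on raw counts.

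**Figure D2:**
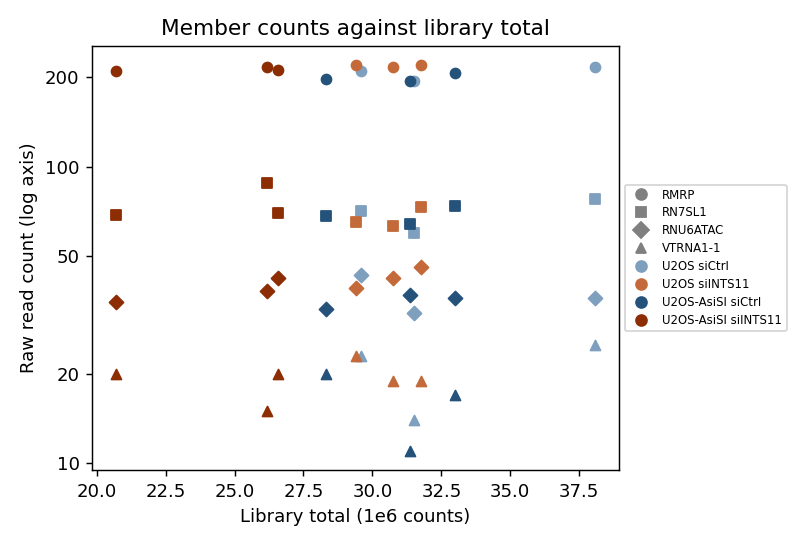
Raw counts of the 4 members (y axis, log scale) against the library total (x axis, in units of 1e6 counts), with 1 point per library, shapes for genes and colours for groups. RMRP stays between 195 and 220 reads while totals run from 20704611 to 38065726, and the 3 libraries of U2OS-AsiSI with siINTS11 have the smallest totals.

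With siINTS11 in U2OS-AsiSI, 1 of the 4 members tested passed the threshold, against 68% of all 20441 genes tested (35.4% higher, 32.6% lower). RMRP was higher, by 0.24 on the log2 scale (SE 0.10, edgeR adjusted p = 0.0307, n = 3 per group), at 6.76 ± 0.380 CPM (counts per 1e6 counts, TMM scaled, SD) with siCtrl and 8.02 ± 1.06 with siINTS11. The smallest library gave 9.24 CPM, against 7.40 and 7.43 in the other siINTS11 replicates. RN7SL1 and RNU6ATAC did not pass, with log2 fold changes of 0.29 (SE 0.14, edgeR adjusted p = 0.0785) and 0.26 (SE 0.19, edgeR adjusted p = 0.221). VTRNA1-1 was not called either. It passed the filter on low counts only through its siINTS11 libraries, so its value of 0.34 (SE 0.29) is a description. A share of 1 in 4 is below the background, so members were not called more often than other genes.

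The RMRP difference depended on 3 libraries and on the scaling. Without replicate 2 of the siINTS11 libraries it was 0.14 (edgeR adjusted p = 0.253), without replicate 1 of siCtrl 0.23 (edgeR adjusted p = 0.0517) and without replicate 2 of siCtrl 0.21 (edgeR adjusted p = 0.101). It was 0.23 with DESeq2 (adjusted p = 0.113). Scaling by library totals alone gave larger values, 0.43 for RMRP (edgeR adjusted p = 0.00058), 0.48 for RN7SL1 (edgeR adjusted p = 0.00628) and 0.45 for RNU6ATAC (edgeR adjusted p = 0.0357). On raw counts without scaling, 0 of the 4 members passed, against 45% of all genes, and the log2 fold changes were 0.09 for RMRP, 0.14 for RN7SL1, 0.12 for RNU6ATAC and 0.19 for VTRNA1-1. The median scaled change was 0.27 over the 4 members, VTRNA1-1 included, and 0.03 over all genes. It was 0.25 over the 120 genes with 0.3 to 0.5 reads per base and 0.21 over the 58 genes above 0.5. The part of library size and read density in the scaled values was not tested.

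With siINTS11 in U2OS, 0 of the 4 members passed (66.9% of 20687 genes did), and no member had an unadjusted p under 0.05 with edgeR. The log2 fold changes were -0.01 for RMRP (SE 0.10), -0.15 for RN7SL1 (SE 0.15), 0.10 for RNU6ATAC (SE 0.20) and -0.11 for VTRNA1-1 (SE 0.26). RMRP stood at 6.88 ± 0.757 CPM with siCtrl and 6.92 ± 0.275 with siINTS11. On raw counts 0 of 4 passed as well, against 42% of all genes.

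The response of the members to siINTS11 did not differ between the lines beyond the spread. In the test of the difference itself 0 of 4 members passed, beside 3.87% of 21521 genes, none with an unadjusted p under 0.05. RN7SL1 came nearest, with a difference of 0.40 on the log2 scale (SE 0.20, edgeR adjusted p = 0.277). Under siCtrl, U2OS-AsiSI against U2OS gave 0 of 4 members, beside 34.9% of 19935 genes, again none with an unadjusted p under 0.05. VTRNA1-1 had the smallest p there (log2 fold change -0.32, SE 0.29, edgeR adjusted p = 0.415). These siCtrl libraries are also the controls of the siINTS11 comparisons. DESeq2 called 0 of 4 members with siINTS11 in each line. For the difference between lines it gave an adjusted p for RMRP alone, and under siCtrl for 3 of the 4 members, and called 0 of these.

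Raw counts without overlap between siRNAs were found for 1 of 4 members in U2OS-AsiSI, where 19.2% of genes were higher and 34% lower in this sense, and for 0 of 4 in U2OS, where 30.8% were higher and 17.4% lower. The ratio of mean raw counts, siINTS11 over siCtrl, was 1.07 to 1.15 for the members in U2OS-AsiSI and 0.962 to 1.14 in U2OS. Summed over the 7 members, the libraries had 347, 356 and 301 reads in U2OS with siCtrl and 358, 347 and 341 with siINTS11, then 307, 334 and 318 in U2OS-AsiSI with siCtrl and 344, 334 and 358 with siINTS11. Those sums were 1.04-fold and 1.08-fold higher with siINTS11 in U2OS and U2OS-AsiSI, and the siRNA groups overlapped or met in both lines.

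The polymerase II snRNA genes moved apart from the members in the same libraries. Of the 17 listed, 6 could be tested. RNU5D-1 and RNU1-1 passed the filter on low counts only through their siINTS11 libraries. The others, RNU4-1, RNU4-2, RNU5A-1 and RNU5B-1, all rose with siINTS11 in both lines. RNU4-2, a U4 snRNA gene, had 80, 86 and 65 reads in U2OS with siCtrl and 123, 117 and 123 with siINTS11, then 66, 76 and 75 in U2OS-AsiSI with siCtrl and 112, 119 and 122 with siINTS11. Its groups lay far apart in both lines at a similar read density to RMRP, 0.688 reads per base on average. RNU5D-1 had 1, 18 and 10 reads in U2OS with siCtrl and 57, 60 and 71 with siINTS11, then 8, 8 and 11 in U2OS-AsiSI with siCtrl and 57, 61 and 65 with siINTS11. RNU1-1 had 9 to 11 reads in the siCtrl libraries of both lines and 29 to 40 in the siINTS11 ones.

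Among RNU4-1, RNU4-2, RNU5A-1 and RNU5B-1, the smallest scaled log2 fold change was 0.66 in U2OS-AsiSI and 0.32 in U2OS, both for RNU4-1. RNU5D-1 had values of 2.89 and 2.60, given as a description. On unscaled counts RNU4-1, RNU4-2, RNU5A-1 and RNU5B-1 passed in U2OS-AsiSI, and in U2OS RNU4-1 alone did not (edgeR adjusted p = 0.0577). All scaled values of the tested snRNA genes lay above those of the members. The members ran from 0.24 to 0.34 in U2OS-AsiSI (0.34 for VTRNA1-1, a description) and from -0.15 to 0.10 in U2OS. This gap held for the 4 members only. Other polymerase III RNA genes, given below, reached 0.59 in U2OS and 0.72 in U2OS-AsiSI, above RNU4-1.

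**Figure D3:**
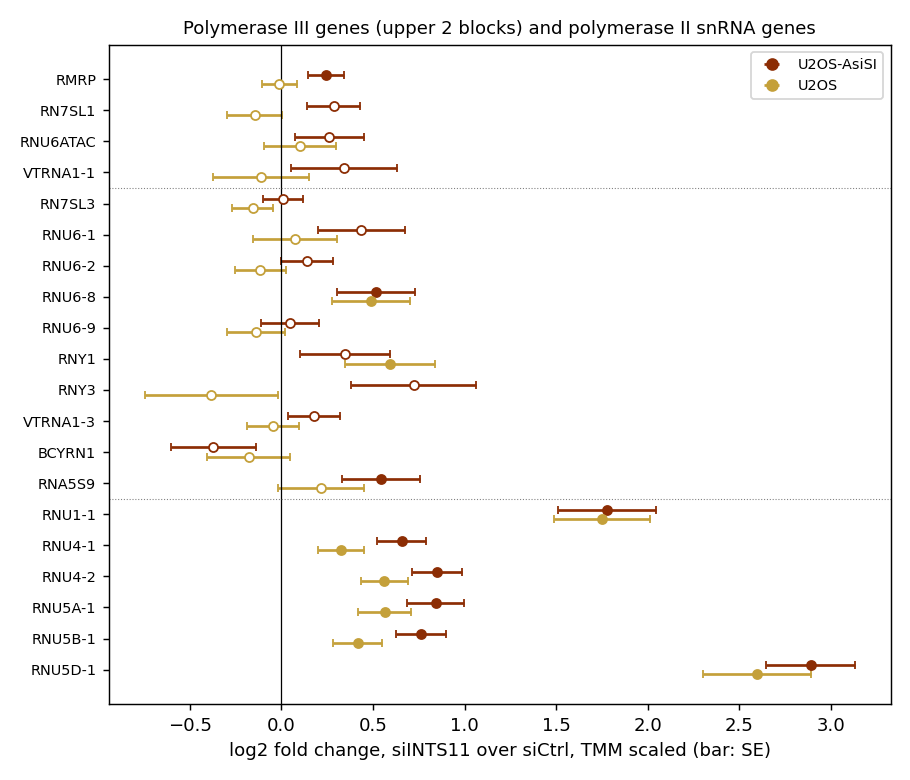
Log2 fold change of siINTS11 over siCtrl (x axis, TMM scaled, bars show the SE) for the 4 members, 10 other polymerase III RNA genes and 6 polymerase II snRNA genes (y axis, blocks from top to bottom), with filled points past an adjusted p of 0.05. All 6 snRNA genes are filled in both lines, while among the members only RMRP in U2OS-AsiSI is. RNU5D-1 and RNU1-1 entered the test only through their siINTS11 libraries, so their points are a description.

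The ratio of an snRNA gene to a member within a library needs no library scaling. It was chosen after the data had been seen, to set each snRNA gene against each member. RNU4-2 over RMRP was 0.370 ± 0.0328 (SD, n = 3) in U2OS with siCtrl and 0.553 ± 0.0184 with siINTS11, and 0.362 ± 0.0216 and 0.552 ± 0.0210 in U2OS-AsiSI. The groups did not overlap in either line, and the ratio was 1.51-fold higher with siINTS11 over both lines (exact two-sided permutation within lines, 400 arrangements, p = 0.005, the smallest they can give, 0.00737 after adjustment over 28 pairs). RNU5A-1 over RN7SL1 went from 0.837 ± 0.0302 to 1.37 ± 0.123 in U2OS and from 0.792 ± 0.0418 to 1.18 ± 0.161 in U2OS-AsiSI. RNU1-1 over RNU6ATAC, given as a description, went from 0.283 ± 0.0525 to 0.881 ± 0.0425 in U2OS and from 0.312 ± 0.0189 to 0.904 ± 0.186 in U2OS-AsiSI.

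The ratios of RNU4-1, RNU4-2, RNU5A-1 and RNU5B-1 to the 4 members were higher with siINTS11. All but RNU4-1 over VTRNA1-1 passed an adjusted p of 0.05 in that exact permutation test. With RNU1-1 added 19 of 20 ratios passed, and with RNU5D-1 as well 23 of 24. These 2 genes passed the filter on low counts only through their siINTS11 libraries, so their pairs are given as a description. The siRNA groups lay apart in both lines in 19 of all 28 pairs, those of RNU1-1 and RNU5D-1 among them. RNU4-1, RNU4-2, RNU5A-1 and RNU5B-1 over VTRNA1-1 overlapped in U2OS-AsiSI. The exception was RNU4-1 over VTRNA1-1, with a mean log2 change of 0.34 (exact permutation p = 0.09, adjusted 0.0969). The other 4 pairs used RNU11, a minor spliceosome snRNA gene with 3 to 4 reads per library, and RNU11 over RMRP was lower, by a log2 change of -0.23 (exact permutation p = 0.01, adjusted 0.0127). The pairs share genes and libraries and are not independent of each other, and with 1 library left out at a time 22 to 25 of the 28 pairs passed the threshold, where all libraries gave 24. No share over all genes was worked out for such ratios. In the scaled fits 35.4% of all genes were higher with siINTS11 in U2OS-AsiSI and 34.5% in U2OS. Those shares are of a different measure, so whether the counts of pairs are particular to snRNA genes was not tested.

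**Figure D4:**
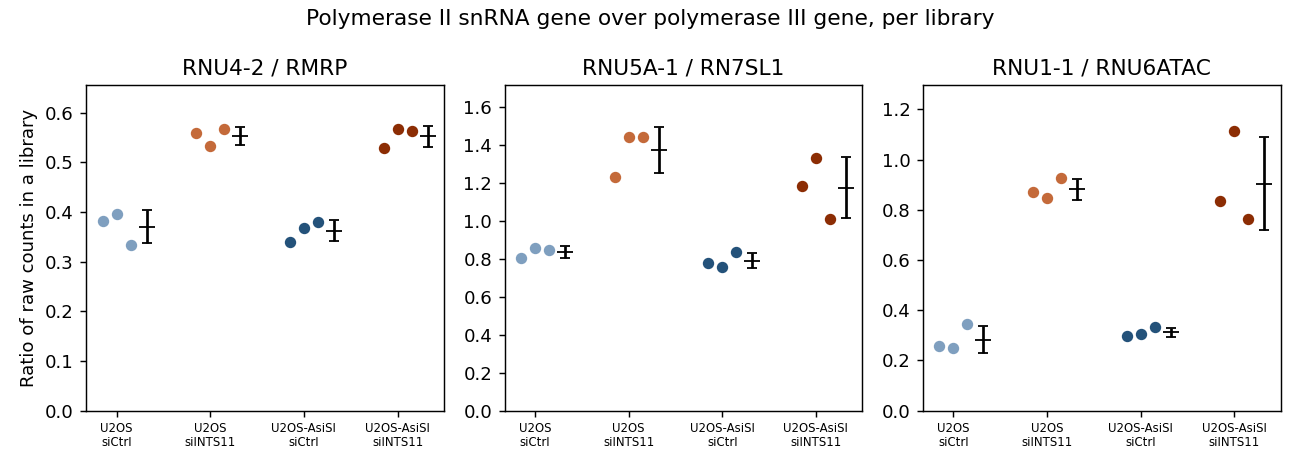
Ratio of raw counts of a polymerase II snRNA gene to a member in the same library (y axis, from 0) for 3 pairs, by group (x axis), with points for replicates and bars for the mean ± SD (n = 3). In these 3 panels every siINTS11 library lies above every siCtrl library of its line, as in 19 of the 28 pairs.

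Other polymerase III RNA genes were read in the same way, and no test compared them with the members. Of 31 listed, 30 were in the tables, 13 had reads and 10 were tested, of which 2 rose in U2OS-AsiSI, 2 rose in U2OS and 0 fell in either. Of all genes tested, 35.4% were higher and 32.6% lower in U2OS-AsiSI, and 34.5% and 32.4% in U2OS, so these genes were not called more often. Those in U2OS-AsiSI were the 5S rRNA copy RNA5S9 (log2 fold change 0.54, SE 0.22, edgeR adjusted p = 0.0267) and the U6 copy RNU6-8 (0.52, SE 0.21, edgeR adjusted p = 0.0337), and neither passed on raw counts. RNY3, a Y RNA gene, was not called there. It passed the filter on low counts only through its siINTS11 libraries, so its value of 0.72 (SE 0.34) is a description. In U2OS the genes were RNU6-8 (0.49, SE 0.21, edgeR adjusted p = 0.0390) and the Y RNA gene RNY1 (0.59, SE 0.25, edgeR adjusted p = 0.0314), and RNY1 also passed on raw counts. The median log2 fold changes of the 10 genes were 0.26 and -0.08 in the 2 lines, beside 0.27 and -0.06 for the members, with a wider range in U2OS-AsiSI, from -0.37 for BCYRN1 to 0.72 for RNY3. On raw counts in U2OS-AsiSI, 4 of the 13 with reads lay wholly above siCtrl, and 2 wholly below, BCYRN1 with a ratio of means of 0.698 and RN7SL3 with 0.907.

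Related copies of these genes differed in reads. RN7SL3, a near-identical copy of RN7SL1, averaged 0.474 reads per base against 0.235 for RN7SL1, and its log2 fold changes were 0.01 (SE 0.11) in U2OS-AsiSI and -0.16 (SE 0.11) in U2OS. The vault RNA genes VTRNA1-3 and VTRNA1-2, 79.8% and 80.8% identical to VTRNA1-1, averaged 0.843 and 0.0468, against 0.190 for VTRNA1-1. RNU6-1, RNU6-2 and RNU6-9, U6 copies of 107 bases that were 100% identical, averaged 0.234, 0.733 and 0.555. How the deposited counting placed reads that match several copies is not given in the sources used here, so the level of a single copy is uncertain. VTRNA2-1 and 16 of the 17 RNA5S copies were at 0 in all libraries with no gene around them.

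Genes that surround or adjoin the members were read next, because the 3 members at 0 can be approached only through their surroundings. AL355075.4, the gene around RPPH1, extends 278 bases upstream and 27 bases downstream of it. It had 2, 6 and 4 reads in U2OS with siCtrl and 16, 23 and 23 with siINTS11, then 2, 5 and 2 in U2OS-AsiSI with siCtrl and 17, 22 and 18 with siINTS11. All siINTS11 libraries were higher than all siCtrl libraries. The gene passed the filter on low counts only through the siINTS11 libraries, so no test is given, and these few reads do not measure RPPH1 itself. PARP2, which starts 174 bases from RPPH1 on the opposite strand, did not pass in either line (log2 fold changes -0.04 and -0.06).

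Around RN7SL2, AL627171.4 did not pass in either line, while AL627171.3 on the opposite strand rose by 0.84 on the log2 scale in U2OS (SE 0.17, edgeR adjusted p = 4e-05) and 0.38 in U2OS-AsiSI (SE 0.16, edgeR adjusted p = 0.0316), the latter not on raw counts. ARHGEF39, which ends 856 bases upstream of RMRP on the same strand, rose by 0.54 in U2OS (SE 0.06, edgeR adjusted p = 6e-10) and 0.48 in U2OS-AsiSI (SE 0.07, edgeR adjusted p = 4.1e-07), and in U2OS-AsiSI not on raw counts. RMRP itself did not pass in U2OS. GSTA4, a glutathione transferase gene that starts 316 bases from RN7SK on the opposite strand, fell in both lines, by log2 fold changes of -0.16 (SE 0.07, edgeR adjusted p = 0.0365) in U2OS and -0.33 (SE 0.07, edgeR adjusted p = 8.85e-05) in U2OS-AsiSI, the former not on raw counts.

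Among the genes of the 7SK particle and P-TEFb, 4 of 7 rose and 1 fell in each line, where 35.4% of all genes were higher and 32.6% lower in U2OS-AsiSI, and 34.5% and 32.4% in U2OS. HEXIM1, which with 7SK RNA inhibits P-TEFb, had 316, 408 and 316 reads in U2OS with siCtrl and 780, 720 and 677 with siINTS11, then 401, 446 and 386 in U2OS-AsiSI with siCtrl and 719, 621 and 736 with siINTS11. Its log2 fold changes were 0.98 in U2OS (SE 0.07) and 0.90 in U2OS-AsiSI (SE 0.06). HEXIM2, its paralog, rose by 1.01 (SE 0.12) and 1.09 (SE 0.12), and MEPCE, which caps 7SK RNA, by 0.68 (SE 0.05) and 0.76 (SE 0.06). Of the 4 that rose, 3 also passed on raw counts in each line, while the RNA partner RN7SK could not be read. LARP7, which binds the 3′ end of 7SK, did not pass (0.02 and -0.06).

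Proteins of the signal recognition particle, the partners of RN7SL1 RNA, numbered 0 of 6 higher and 3 of 6 lower in each line, where 32.6% (U2OS-AsiSI) and 32.4% (U2OS) of all genes were lower. SRP19 fell by a log2 fold change of -0.36 in U2OS-AsiSI (SE 0.05) and -0.14 in U2OS (SE 0.05), SRP54 by -0.21 (SE 0.05) and -0.14 (SE 0.04), and SRP72 by -0.13 (SE 0.05) and -0.16 (SE 0.04). On raw counts 2 of 6 were lower in U2OS-AsiSI and 0 of 6 in U2OS. Of 9 tested protein genes of RNase P and RNase MRP, the partners of RMRP and RPPH1, 4 rose and 2 fell in U2OS-AsiSI and 3 rose and 2 fell in U2OS. Beside these, 35.4% and 34.5% of all genes were higher and 32.6% and 32.4% lower. RPP38 rose by 0.30 (SE 0.06) and 0.38 (SE 0.05), POP4 rose by 0.25 (SE 0.06) and 0.17 (SE 0.05), and RPP30 fell by log2 fold changes of -0.23 (SE 0.05) and -0.15 (SE 0.04), in U2OS-AsiSI and U2OS. On raw counts POP4 did not pass in either line, RPP38 passed in U2OS and RPP30 in U2OS-AsiSI.

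Of the 3 vault protein genes, MVP, the major vault protein, fell in both lines, by log2 fold changes of -0.30 (SE 0.08) in U2OS-AsiSI and -0.53 (SE 0.07) in U2OS. TEP1 rose in U2OS-AsiSI only in the scaled fit (0.11, SE 0.05, edgeR adjusted p = 0.0364) and PARP4 did not pass. Of 33 genes of the polymerase III transcription machinery, 9 rose and 8 fell in U2OS-AsiSI and 12 rose and 8 fell in U2OS. Of all genes tested, 35.4% were higher and 32.6% lower in U2OS-AsiSI, and 34.5% and 32.4% in U2OS. The same shares stand beside the vault protein genes. The smallest p-values were those of POU2F1, the octamer factor of snRNA-type promoters (log2 fold changes -0.61 and -0.52), POLR1D, a subunit shared with polymerase I (-0.49 and -0.42), and ZNF143, an activator of the same promoters (-0.32 and -0.27). POU2F1 and POLR1D also passed on raw counts in both lines, and ZNF143 in U2OS-AsiSI.

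Genes were also ranked by how closely their scaled levels followed each member over the 12 libraries. RMRP correlated best with VIM (Pearson r = 0.983 of log2 CPM, among 21520 genes), H3-3B (0.977) and JUN (0.974), of which VIM and JUN averaged 0.455 and 0.559 reads per base. RN7SL1 correlated best with SF3A2 (0.954), RNU6ATAC with AC009779.4 (0.910) and VTRNA1-1 with AC103843.1 (0.958). AC009779.4 had 18.2 reads per library on average and AC103843.1 had 15.4. Between members r ran from 0.36 to 0.75. All these values share the libraries and their scaling factors, and are given as a description.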

How the data were processed

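Raw read counts per gene were deposited by the authors in 6 tables for 12 libraries, whose columns are those of featureCounts, per the file headers. The submitters' processing notes name Trimmomatic 0.36, STAR 2.7, featureCounts, deepTools and hg38. The counter's strand setting and its handling of multiply mapped and duplicate reads are not given in the sources used here. Columns of other samples numbered 0.

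The quasi-likelihood test of edgeR 4.0.16 (R 4.3.3) was run two-sided after filterByExpr and TMM scaling, with robust estimation, on the 6 libraries compared, or on all 12 with an interaction term for the difference between lines. Adjusted p-values are Benjamini-Hochberg over all genes tested, with a threshold of 0.05, and an SE is the size of the log2 fold change divided by the root of its F statistic. Unscaled fits used raw counts with equal library sizes. Reads per base are counts over gene length, and log2 CPM used a prior count of 2. Ratios of snRNA genes to members were tested by exact permutation within lines, chosen after seeing the data. A permutation test planned for the summed reads is not given, since a sum over chosen members gets no p. The edgeR tests were checked on simulated counts that followed library totals. Of 200 genes changed 2-fold, 98.5% were recovered in U2OS-AsiSI, 94.5% in U2OS and 90% for the difference between lines. Member counts hardly followed the totals, so this does not check the tests for the members. Other settings tried were DESeq2 1.42.0, size factors by median of ratios, library totals, a replicate block, no filter on counts, a filter at a mean count of 50, and each library left out.

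Members and gene lists were chosen with earlier results of these data known. Named genes are the members, genes overlapping or within 1 kb of them, the 3 genes per list with the smallest adjusted p in U2OS-AsiSI and the 3 most correlated genes per member, of which the text gives some. RNU4-1, RNU5A-1, RNU11, LARP7, RNY1, BCYRN1 and the copies of RN7SL, U6 and vault genes were named after their values were seen. Sequences came from GENCODE 29 (biopython 1.88), those of the RN7SL genes are not reported here, and figures were drawn with matplotlib 3.10.9. Same-numbered replicates deviated together with a correlation over 0.1 in 1 of 18 pairs, so the numbers were not taken to pair libraries.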

Additional observations from a re-analysis of the deposited data

How the results depend on the processing

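Members called with siINTS11 in U2OS-AsiSI, 1 in the reported fit, numbered 3 with library totals alone, 2 with a mean count filter of 50, and 0 on raw counts and with DESeq2, and 0 to 2 when 1 library was left out. Called genes fell from 13893 to 9198 in U2OS-AsiSI and from 13846 to 8686 in U2OS on raw counts, and from 6962 to 311 between the lines under siCtrl. The difference between lines gave 832 genes, against 447 with median-of-ratios factors, 531 with the replicate block, 423 with DESeq2, 3 on raw counts, and 288 (without U2OS siINTS11 replicate 3) to 945 with 1 library left out. The replicate block changed no other call of a member: 1, 0, 0 and 0 members passed with it in the 4 comparisons. The summed reads in U2OS-AsiSI were 1.08-fold on raw counts, 1.20-fold as CPM and 1.37-fold as a share of the library total. Directions turned only for members that passed no test in that comparison. With library totals, the U2OS log2 fold changes were 0.053 for RN7SL1, 0.19 for RMRP and 0.087 for VTRNA1-1, and the siCtrl lines differed by 0.040 for RMRP and 0.028 for RNU6ATAC. RMRP in U2OS was 0.079 on raw counts and 0.029 with a mean count filter of 50, RN7SL1 between siCtrl lines was -0.021 on raw counts, and the RNU6ATAC difference between lines was -0.076 on raw counts. Leaving out 1 library moved RMRP in U2OS from -0.087 to 0.073, VTRNA1-1 from -0.27 to 0.048 and RNU6ATAC from -0.026 to 0.30, the RNU6ATAC difference between lines from -0.067 to 0.26, and the siCtrl lines from -0.096 to 0.069 (RMRP), -0.16 to 0.17 (RNU6ATAC) and -0.025 to 0.11 (RN7SL1). Apart from the settings that change depth scaling or the genes and samples used, the cause was not tested. Depth limits VTRNA1-1 most, at 11 to 25 reads per library, and without molecular identifiers a read need not stand for a separate molecule.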
